A study of Homo sapiens with 6 samples.

Results

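The 10 genes described here belong to the response to oxidative stress governed by the transcription factor NRF2, and to the storage of iron. They are NFE2L2, the gene of NRF2 itself, HMOX1, NQO1, GCLM, GCLC, SLC7A11, TXNRD1, SRXN1, and the ferritin genes FTH1 and FTL. Each was taken by its symbol, and each gave 1 row of the 20522 in every library file and 1 row of the 20322 in a further table with a value per group. K1 is an established cell line from human papillary thyroid carcinoma. Its cells were transfected either with a negative control siRNA (NC, 3 libraries) or with an siRNA against NEAT1_2, the long isoform of the noncoding RNA NEAT1 that forms the core of nuclear paraspeckles (si-NEAT1_2, 3 libraries), and their mRNA was sequenced. All 6 libraries come from 1 cell line, and the labels do not say whether the replicates were separate cultures, so p-values measure the spread between these libraries, which may be technical. The level of NEAT1 itself was not analysed here. At issue is whether these genes differ between NC and si-NEAT1_2 libraries, and how the values of the group table compare with those of the libraries.

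NRF2 is held in the cytoplasm and sent for degradation by KEAP1. When reactive molecules modify KEAP1, NRF2 accumulates, enters the nucleus, pairs with a small MAF protein and binds antioxidant response elements near genes for glutathione synthesis, the thioredoxin system, quinone detoxification, heme breakdown and iron storage. NRF2 is thus regulated mainly as a protein, and so is ferritin, because an iron responsive element in the 5′ end of both ferritin mRNAs is bound by iron regulatory proteins when iron is scarce and then holds back translation. The libraries measure mRNA alone, so neither kind of regulation is seen in them directly. In the thyroid, hydrogen peroxide is made for hormone synthesis, and these genes are part of the cells' protection against it.

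Examples of both kinds of sequence are shown. Those of GCLM and TXNRD1 are matches to a motif, at which NRF2 binding was not measured. That of the ferritin pair is the element they share. A core of the antioxidant response element, TGACNNNGC on either strand, was searched in RefSeq promoter windows (GRCh38.p14) from 250 bases before to 50 bases after each start. Of 35116 windows, 4687 (13.35%) held it. Windows were given for 7 of the 10 genes, and 3 of their 9 windows held the motif, in GCLM and TXNRD1. The GCLM match lay at chr1:93909445-93909474 on the minus strand and ended 26 bases before the start. A match in a window of TXNRD1 lay at chr12:104286920-104286949 on the plus strand, 94 bases before that start, which is inside the gene. Other TXNRD1 matches, not printed, lay near its 5′ end, at chr12:104215670-104215699 and chr12:104215761-104215790. Each printed match is written along its gene's own strand, with the motif, here in its reverse complement, in capitals.
GCLM: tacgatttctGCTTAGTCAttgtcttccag
TXNRD1: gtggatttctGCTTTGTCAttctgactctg

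For the ferritin genes, the core of the iron responsive element, a bulged C, any 5 bases and the loop CAGTG, was searched on the transcript strand in the first 100 bases of GENCODE 29 transcripts (GRCh38). It occurred in 1938 of 19701 protein-coding genes (9.837%), among them 4 of the 10 genes: FTH1, FTL, NFE2L2 and SLC7A11. The exact letters CTTCAACAGTG were found in 2 genes, FTH1 and FTL. The 30 bases around them lie in the first exon, at chr11:61967576-61967605 on the minus strand in FTH1 and at chr19:48965332-48965361 on the plus strand in FTL. The core, in capitals, begins at base 65 of the FTH1 transcript and base 41 of the FTL transcript, and 26 of the 30 bases are identical.
FTH1: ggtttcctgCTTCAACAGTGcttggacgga
FTL: tgtctcttgCTTCAACAGTGtttggacgga

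Total expected counts ran from 22798631 to 27066025 per library and the lowest count of any of the 10 genes was 497. Of 7 thyroid markers, 3 had an FPKM (fragments scaled to transcript length and library size) of at least 1 in every library, with PAX8 at 113 to 169, FOXE1 at 5.75 to 8.78 and TG, thyroglobulin, at 2.48 to 2.99. NKX2-1, TSHR and SLC5A5 stayed under 0.3. Endothelial markers were all under 0.3, as were 4 of 5 leukocyte markers, PTPRC and CD14 included. The exception was CD68, through which the summed leukocyte list was 11.8 to 13.5 FPKM in NC and 15.1 to 20.0 in si-NEAT1_2 libraries. The fibroblast list, mostly LUM, summed to 24.2 to 28.7 and 18.6 to 21.6 FPKM. Both sums separate the groups as some of the genes below do, and their part in those results was not tested. In bulk libraries, fewer cells with a transcript and less transcript per cell cannot be told apart. In 9 of the 10 genes si-NEAT1_2 replicate 1 lay nearer to the NC mean than the other two si-NEAT1_2 libraries did, and it is the only library whose label carries the code L4. Leaving it out took the number of genes called over the whole table from 0 to 32 higher and 184 lower.

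Ranked by mean FPKM in NC libraries, the scale that allows levels of different genes to be compared, the ferritin mRNAs came first. FTH1, the heavy chain that carries the ferroxidase site, stood at 4954 ± 666 (SD, n = 3) and FTL, the light chain, at 2378 ± 261. They were followed by NQO1 at 378 ± 35.2, TXNRD1 at 130 ± 8.51, HMOX1 at 50.4 ± 6.97, NFE2L2 at 47.5 ± 8.05, SRXN1 at 36.2 ± 2.86, GCLM at 21.2 ± 1.51, GCLC at 8.25 ± 1.20 and SLC7A11 at 6.98 ± 1.94. Over all 6 libraries, the ranges of TXNRD1 and HMOX1, of HMOX1 and NFE2L2, of NFE2L2 and SRXN1, and of GCLC and SLC7A11 overlapped. Compared library by library, TXNRD1 was above HMOX1 in 5 of 6 libraries, HMOX1 above NFE2L2 in 5 and NFE2L2 above SRXN1 in 4, so these neighbours kept no fixed order. GCLC was above SLC7A11 in all 6 libraries, as were FTH1, FTL, NQO1, SRXN1 and GCLM above the gene next in order.

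Between the groups, the ferritin chains and HMOX1 had more mRNA in si-NEAT1_2 libraries, and SLC7A11 and TXNRD1 had less, with no overlap of the 3 NC and 3 si-NEAT1_2 values of any of these 5 genes. NQO1, SRXN1, GCLC, GCLM and NFE2L2 overlapped, although GCLM did not when measured in FPKM. None of the 10 was called by the thresholds in use, an adjusted p under 0.05 and at least a 2-fold difference, when edgeR's quasi-likelihood test was run over 13109 genes and adjusted by Benjamini-Hochberg. The share of all genes so called was 0 in either direction, so the absence of a call says nothing particular about these genes. DESeq2 called 15 genes higher and 45 lower at the same thresholds, none of them among the 10. Without the adjustment, 5 of the 10 (HMOX1, FTH1, FTL, SLC7A11 and NFE2L2) had p under 0.05 against 24.1% of all genes, 3 of them higher (11.2% of all genes) and 2 lower (12.9%). With the replicate number as a block, 2 of the 10, HMOX1 and SLC7A11, had p under 0.05 against 11.7% of all genes. Without overlap, 3 were higher against 15.4% of all genes, and 2 lower against 14.1%. The median log2 fold change of the 10 was -0.03, and that of all genes 0.0090, with median absolute values of 0.30 and 0.27. Of the 10 genes, 5 were above 0 and 5 below.

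**Figure D1:**
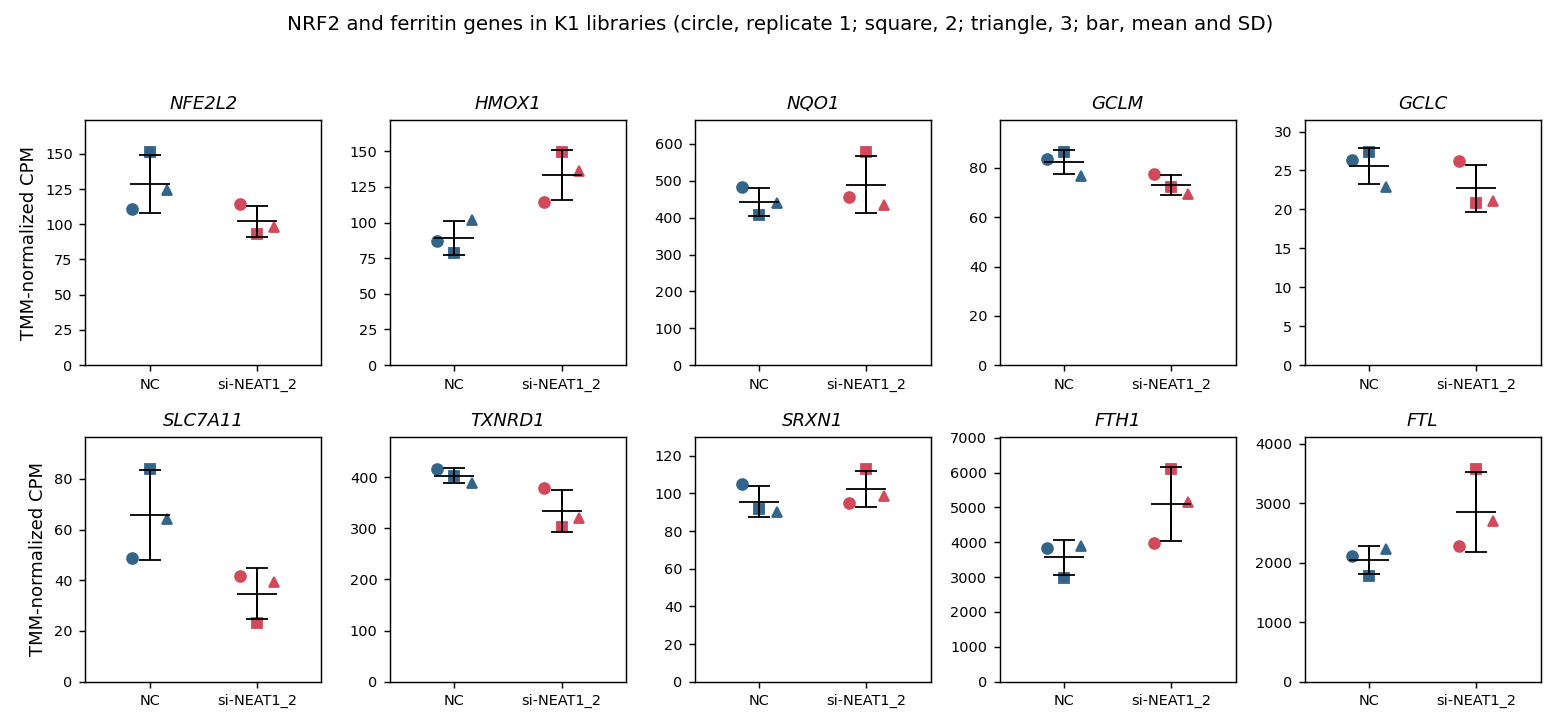
Normalized counts (TMM CPM, y axis, from 0) of the 10 genes in each of 3 NC (blue) and 3 si-NEAT1_2 (red) libraries, with a bar for the mean and SD. HMOX1, FTH1 and FTL lie higher and SLC7A11 and TXNRD1 lower in all 3 si-NEAT1_2 libraries, and in each of these 5 the circle of si-NEAT1_2 replicate 1 is the closest to the NC values.

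NFE2L2, ENSG00000116044 on chromosome 2 (177227595 to 177392697, minus strand), encodes NRF2. In CPM, counts scaled to library size with the TMM factors, it was measured at 111, 151 and 124 in NC replicates 1, 2 and 3, and 115, 93.4 and 98.1 in the si-NEAT1_2 replicates in the same order. Replicates 2 and 3 of si-NEAT1_2 lay below all NC libraries, while replicate 1 exceeded NC replicate 1, so the groups overlapped. The log2 fold change was -0.34 (SE 0.147, 95% interval -0.66 to -0.01) and the adjusted p by edgeR's quasi-likelihood test was 0.197. Without NC replicate 2, the highest library, it was -0.21 (edgeR adjusted p = 0.597).

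Among 5653 genes with a mean log2 CPM of at least 5, the profile over the 6 libraries most like that of NFE2L2 was that of MASTL, a mitotic kinase, followed by FANCI, of the Fanconi DNA repair pathway, and AL135905.2. Their root mean square differences in mean-centred log2 CPM were 0.0208, 0.0269 and 0.0351. The target genes compared were farther away, TXNRD1 at 0.146 (rank 685) and GCLM at 0.154 (rank 790) being nearest. SRXN1, NQO1 and SLC7A11 followed at 0.325, 0.362 and 0.380, and HMOX1, FTL and FTH1 at 0.539, 0.530 and 0.553 were among the most distant. In CPM, SRXN1, NQO1, HMOX1, FTL and FTH1 were highest in si-NEAT1_2 replicate 2, where NFE2L2 was lowest. SLC7A11, like NFE2L2, was highest in NC replicate 2 and lowest in si-NEAT1_2 replicate 2, with a wider spread. The measure counts the size of a difference as well as its direction, so distance alone does not show a different order of libraries. GCLC lay under the level of 5 and was not compared.

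The glutathione arm begins with the uptake of cystine. SLC7A11 on chromosome 4 (138164097 to 138242349, minus strand) encodes the transport chain of the cystine and glutamate exchanger. It was measured at 48.9, 84.1 and 64.2 CPM in NC libraries and at 41.6, 23.2 and 39.2 CPM in si-NEAT1_2 libraries. All 3 si-NEAT1_2 values lay below the lowest NC value, by a narrow margin for replicate 1, and the values within each group were more spread, relative to their mean, than those of any other of the 10 genes. The log2 fold change of -0.92 (SE 0.239, 95% interval -1.45 to -0.40) was the largest of the 10 in size. Its adjusted p by edgeR's quasi-likelihood test was 0.170. Leaving out si-NEAT1_2 replicate 1 gave -1.09 and an edgeR adjusted p of 0.0493, past both thresholds, and over the alternatives tried the adjusted p ranged from 0.0198 to 0.557.

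GCLC and GCLM encode the catalytic and the modifier subunit of glutamate-cysteine ligase, which makes the first and rate-limiting step of glutathione synthesis. GCLC, on chromosome 6 (53497341 to 53616970, minus strand), was measured at 26.3, 27.4 and 22.9 CPM in NC and at 26.2, 20.9 and 21.0 CPM in si-NEAT1_2 libraries. GCLM, on chromosome 1 (93885205 to 93909456, minus strand), stood at 83.7, 86.5 and 76.9 CPM and at 77.6, 72.4 and 69.5 CPM. For both subunits replicates 2 and 3 of si-NEAT1_2 were lowest and replicate 1 fell among the NC values. The log2 fold changes were -0.17 for GCLC (SE 0.155, 95% interval -0.51 to 0.17, edgeR adjusted p = 0.499) and -0.17 for GCLM (SE 0.121, 95% interval -0.43 to 0.10, edgeR adjusted p = 0.382). Without si-NEAT1_2 replicate 1 the GCLC value was -0.29 (edgeR adjusted p = 0.236).

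The ratio of GCLC to GCLM within a library, which needs no scaling between libraries, was 0.382, 0.419 and 0.361 in FPKM in NC and 0.450, 0.307 and 0.331 in si-NEAT1_2 libraries. The group ratios, 0.387 ± 0.0295 and 0.363 ± 0.0767 (SD, n = 3 each), overlapped, with a log2 difference of -0.11. An exact two-sided permutation test gave p = 0.60, and 0.80 after adjustment over the 2 ratios tested, where 3 libraries against 3 cannot go below 0.10. In FPKM the overlap rested on si-NEAT1_2 replicate 1. Without it both remaining si-NEAT1_2 ratios lay below all NC ratios, with a log2 difference of -0.28 and an exact permutation p of 0.10, the smallest that 2 libraries against 3 allow. Without si-NEAT1_2 replicate 2 the difference was -0.0019. With expected counts in place of FPKM, over all libraries, it was -0.0030, so the lower ratio was seen in FPKM only.

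The thioredoxin arm is led here by TXNRD1, cytosolic thioredoxin reductase, on chromosome 12 (104215779 to 104350305, plus strand). It had 417, 403 and 388 CPM in NC and 379, 301 and 319 CPM in si-NEAT1_2 libraries. Every si-NEAT1_2 library lay below every NC library, although replicate 1 only just. The log2 fold change was -0.27 (SE 0.129, 95% interval -0.56 to 0.01, edgeR adjusted p = 0.218). Sulfiredoxin, SRXN1, restores overoxidized peroxiredoxins and lies on chromosome 20 (646615 to 653370, minus strand). Its 105, 91.5 and 90.1 CPM in NC and 95.1, 113 and 98.5 CPM in si-NEAT1_2 libraries were interleaved. Its log2 fold change was 0.10 (SE 0.128, 95% interval -0.18 to 0.38, edgeR adjusted p = 0.643), and single libraries left out moved it between 0.01 and 0.16.

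NQO1, a quinone reductase often used as a readout of NRF2, lies on chromosome 16 (69706996 to 69726951, minus strand). It was measured at 484, 407 and 439 CPM in NC and at 457, 578 and 433 CPM in si-NEAT1_2 libraries. Only si-NEAT1_2 replicate 2 was outside the NC range on the high side, and the other two lay within it. The log2 fold change was 0.14 (SE 0.145, 95% interval -0.17 to 0.46, edgeR adjusted p = 0.538), and without si-NEAT1_2 replicate 2 it was -0.0026. Thus the sign of the NQO1 difference rested on 1 library.

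Heme oxygenase 1, HMOX1, on chromosome 22 (35380361 to 35394214, plus strand), opens the heme ring and releases its iron. Its level was 87.2, 78.7 and 102 CPM in NC and 114, 149 and 136 CPM in si-NEAT1_2 libraries, means of 89.2 ± 11.7 and 133 ± 17.7 (SD, n = 3 each). The groups did not overlap, and the lowest si-NEAT1_2 value was again that of replicate 1. The log2 fold change was 0.58 (SE 0.146, 95% interval 0.26 to 0.90), the highest of the 10, and edgeR's adjusted p was 0.170. Leaving out si-NEAT1_2 replicate 1 gave 0.67 and an edgeR adjusted p of 0.0493, still under a 2-fold difference, and over all alternatives the adjusted p ranged from 0.0306 to 0.557.

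Released iron is stored in ferritin, a shell of FTH1 and FTL chains. FTH1, on chromosome 11 (61959718 to 61967660, minus strand), was measured at 3825, 2986 and 3882 CPM in NC and at 3989, 6115 and 5163 CPM in si-NEAT1_2 libraries. FTL, on chromosome 19 (48965301 to 48966878, plus strand), stood at 2118, 1776 and 2239 CPM and at 2275, 3584 and 2703 CPM. Both chains put the libraries in the same order, with NC replicate 2 lowest, si-NEAT1_2 replicate 2 highest and si-NEAT1_2 replicate 1 just above the highest NC library. The log2 fold changes were 0.51 for FTH1 (SE 0.185, 95% interval 0.11 to 0.92, edgeR adjusted p = 0.172) and 0.48 for FTL (SE 0.182, 95% interval 0.08 to 0.88, edgeR adjusted p = 0.174). Without si-NEAT1_2 replicate 2, FTL was at 0.28 (edgeR adjusted p = 0.314) and FTH1 at 0.35 (edgeR adjusted p = 0.290). Together the 2 genes took 0.602%, 0.492% and 0.624% of all expected counts in NC and 0.639%, 0.894% and 0.782% in si-NEAT1_2 libraries. The shares of the groups did not overlap either.

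Heavy and light chain kept close proportions. The FTH1 to FTL ratio in FPKM was 2.18, 2.002 and 2.06 in NC and 2.09, 1.95 and 2.13 in si-NEAT1_2 libraries, means of 2.08 ± 0.0896 and 2.06 ± 0.0909 (SD, n = 3 each). The log2 difference was -0.02, with p = 0.80 by the exact two-sided permutation test and 0.80 after adjustment. Ferritin genes have many processed copies in the genome, 25 FTH1P and 16 FTLP pseudogenes in GENCODE 29, with which reads may be shared. The expected counts of FTH1 were not whole numbers in any of the 6 libraries, those of SRXN1 in 1 library, and those of the other 8 genes were whole throughout.

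**Figure D2:**
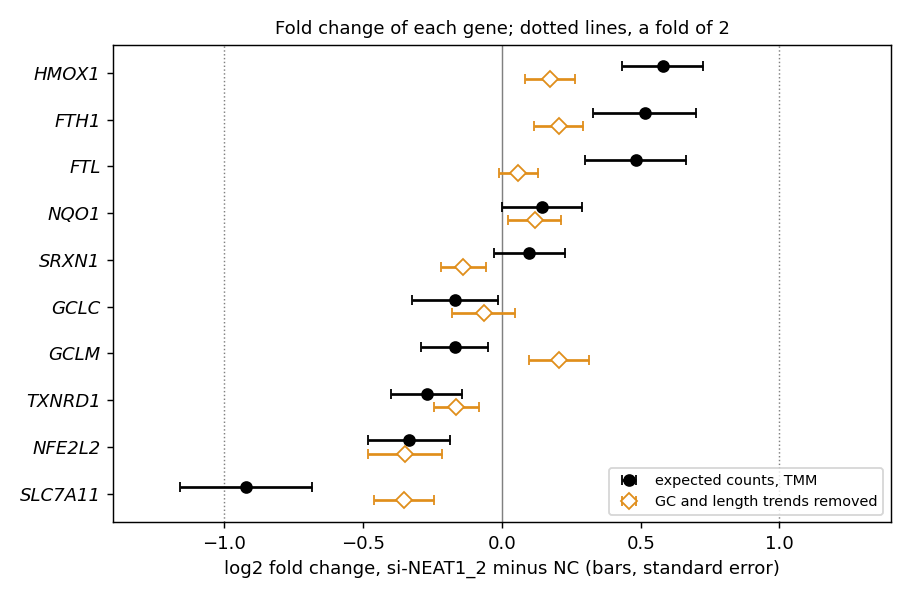
Log2 fold change of si-NEAT1_2 minus NC (x axis, bars for the standard error) of the 10 genes, from expected counts with TMM scaling (black circles) and after removal of GC and length trends (open diamonds). From the counts as deposited the genes range from -0.92 (SLC7A11) to 0.58 (HMOX1), and after the removal from -0.35 to 0.21, with GCLM and SRXN1 on the other side of 0.

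The differences of the 10 genes were ordered in part by the base composition of their transcripts. Over 12581 genes with an annotated transcript, the median log2 fold change went up with the GC content of the longest transcript, when genes were put into 5 bins of equal size, from -0.37 in the lowest bin through -0.18, 0.02 and 0.17 to 0.28 in the highest. GCLM and SLC7A11 were in the lowest bin, GCLC and TXNRD1 in the next, NFE2L2, NQO1 and FTH1 in the middle, and HMOX1, SRXN1 and FTL in the one above it. The 5 members with log2 fold changes above 0 had transcripts of 46.0% to 58.1% GC and 878 to 2912 bases, and the 5 below 0 had 35.4% to 45.6% GC and 2853 to 9645 bases. The 2 sets therefore did not overlap in GC content, but only just. They were parted by NQO1 at 46.0%, whose sign rested on a single library, and NFE2L2 at 45.6%. The origin of this trend was not tested.

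**Figure D3:**
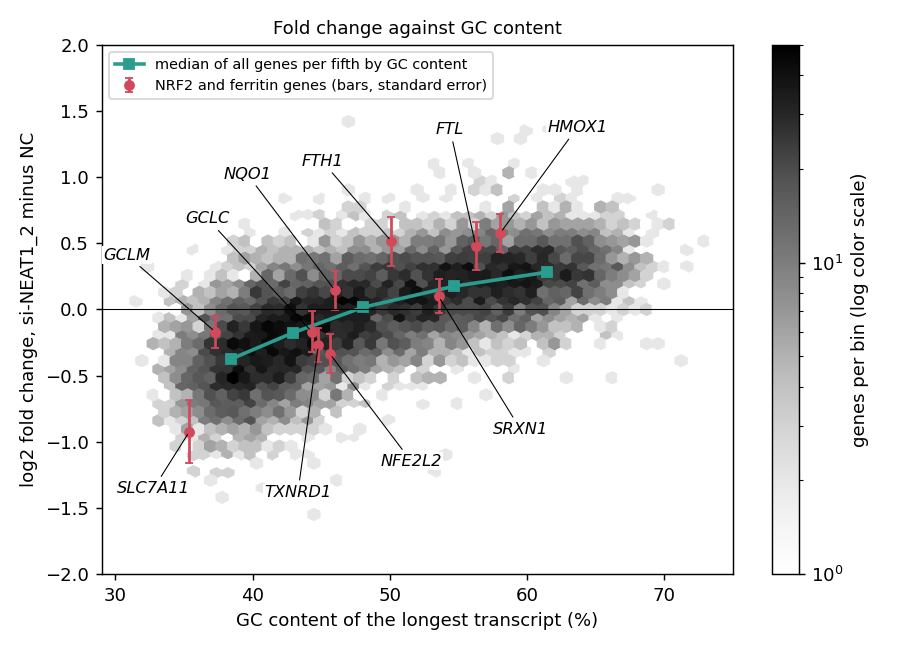
Log2 fold change of si-NEAT1_2 minus NC (y axis) against the GC content of the longest transcript (x axis, %) for all genes tested (grey bins, log color scale), the median per bin of 5 equal bins by GC content (green squares) and the 10 genes (red, bars for the standard error). The medians climb from -0.37 to 0.28. SLC7A11, at the low end of GC content, and NFE2L2 lie below the median of their bin. HMOX1 and FTL, toward the high end, and FTH1 lie above the median of theirs. Of 12581 genes with GC content, 6 lie outside the axes.

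When smooth trends of GC content and transcript length were removed from each library, the differences moved most in SLC7A11, FTL, HMOX1 and GCLM. SLC7A11 went from -0.92 to -0.35, HMOX1 from 0.58 to 0.17, and FTL from 0.48 to 0.06. FTH1 went from 0.51 to 0.20. NFE2L2 was almost unmoved, from -0.34 to -0.35. TXNRD1 was at -0.16, NQO1 at 0.12 and GCLC at -0.07, while GCLM (0.21) and SRXN1 (-0.14) changed sign. After the removal, 3 of the 10, SLC7A11, NFE2L2 and FTH1, had an unadjusted p under 0.05 in edgeR's quasi-likelihood test against 16.8% of all genes, and none was called.

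Library code was examined next, as the L number in the sample labels, whose meaning the labels do not give. Within code L2, with NC replicates 2 and 3 and si-NEAT1_2 replicate 2, all 10 genes had the sign of the pooled difference. Within L3, with 1 library of each group, 8 of 10 did, the exceptions being NQO1 at -0.16 and SRXN1 at -0.09 in log2 CPM. The libraries of each code are part of the pooled difference, so shared signs are in part built in. The share of all genes with a shared sign was not taken, so these counts are a description only. The size differed between codes, as in SLC7A11, which was -1.66 within L2 and -0.32 within L3, and FTH1, which was 0.84 and 0.43. Code L4 held a single si-NEAT1_2 library and gave no difference. With the code as a covariate, which leaves si-NEAT1_2 replicate 1 to a term of its own, none of the 10 was called, and SLC7A11 stood at -1.07, HMOX1 at 0.69 and FTH1 at 0.66.

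The wider pathway was read from 5 lists with 71 genes, of which 67 were tested (68 rows, since GGT1 is entered under 2 identifiers). No gene of the lists was called, and the lowest adjusted p by edgeR's quasi-likelihood test was 0.170 in each list. Without adjustment 21 rows were higher at p under 0.05 (30.9% against 11.2% of all genes tested) and 6 lower (8.82% against 12.9%). After GC and length trends were removed, 19 rows (27.9%) had p under 0.05 in either direction, against 16.8% of all genes.

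Of 10 regulators and partners of NRF2, 1 was higher and 2 lower at an unadjusted p under 0.05 in edgeR's quasi-likelihood test, with a median log2 fold change of 0.11. SQSTM1, the autophagy receptor p62 that can draw KEAP1 away from NRF2, had 506 ± 58.6 CPM in NC and 789 ± 122 CPM in si-NEAT1_2 libraries (SD, n = 3 each), a log2 fold change of 0.64 that was 0.37 after GC and length trends were removed. CUL3, the scaffold of the ubiquitin ligase that KEAP1 joins, stood at -0.39, and BTRC, the substrate receptor of a second ligase for NRF2, at -0.34. After the removal CUL3 was at 0.08 and BTRC at -0.15.

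Of 20 further NRF2 targets, 17 were tested, 8 were higher and 2 lower by the same measure, and their median was 0.35, or -0.00078 after GC and length trends were removed. AKR1C3, a ketosteroid reductase, was the highest at 0.52 and stayed at 0.54 after the removal. EPHX1, microsomal epoxide hydrolase, and CBR1, a carbonyl reductase, were at 0.52 and 0.51, and then at 0.12 and 0.20. UGDH, which makes UDP-glucuronate, and ME1, the NADPH-forming malic enzyme, were at -0.40 and -0.38, and then at -0.21 and -0.14. AKR1C1, AKR1C2 and GPX2 were too low to be tested.

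In the glutathione system, 6 of 13 rows were higher and 1 lower, with a median of 0.29, or 0.19 after the removal. GPX4, which reduces lipid hydroperoxides and so protects from ferroptosis, had 169 ± 25.7 CPM in NC and 273 ± 78.1 CPM in si-NEAT1_2 libraries, a log2 fold change of 0.69, then 0.19. GGT1, gamma-glutamyltransferase (ENSG00000100031), stood at 0.67 and GPX1, the cytosolic glutathione peroxidase, at 0.64, and GPX8, of the endoplasmic reticulum, at -0.35. After the removal these 3 were at 0.33, 0.13 and -0.14. GPX4, which uses glutathione, and SLC7A11, which feeds its synthesis, had differences of opposite sign, at GC contents of 62.5% and 35.4%.

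In the thioredoxin and peroxiredoxin list 4 of 12 genes were higher and 0 lower, with a median of 0.22, or 0.08 after the removal. TXNRD2, the mitochondrial thioredoxin reductase, was at 0.71 with 94.1 ± 9.92 and 154 ± 48.1 CPM, where its cytosolic counterpart TXNRD1 was at -0.27. PRDX5 and PRDX2, peroxiredoxins, stood at 0.64 and 0.50. After the removal TXNRD2 was at 0.40, PRDX5 at 0.17 and PRDX2 at 0.09. In heme and iron handling, 2 of 16 tested genes were higher and 1 lower, with a median of -0.02. IREB2, an iron regulatory protein of the kind that binds the element printed above, had 44.4 ± 10.7 CPM in NC and 26.2 ± 7.26 CPM in si-NEAT1_2 libraries, a log2 fold change of -0.76 (SE 0.226, edgeR adjusted p = 0.170), which was -0.33 after the removal. HMOX2, the constitutive heme oxygenase, and BLVRB, a biliverdin reductase, were both at 0.39 and then at 0.02 and -0.06.

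The group table gives 1 expected count and 1 FPKM per gene and group, with no replicates, so its ratios have no error. Its columns summed to 17678761 and 19579897 counts, below the total of every library. The authors' NC value lay within the range of the NC libraries for 3 of the 10 genes, SLC7A11, FTH1 and FTL, and below it for the other 7. The si-NEAT1_2 value lay within its range for 1, SLC7A11, below it for 7, and above it for HMOX1 and FTL. A value below every library of its group is not their mean, so for most of the 10 genes the table holds something other than the mean of these libraries.

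**Figure D4:**
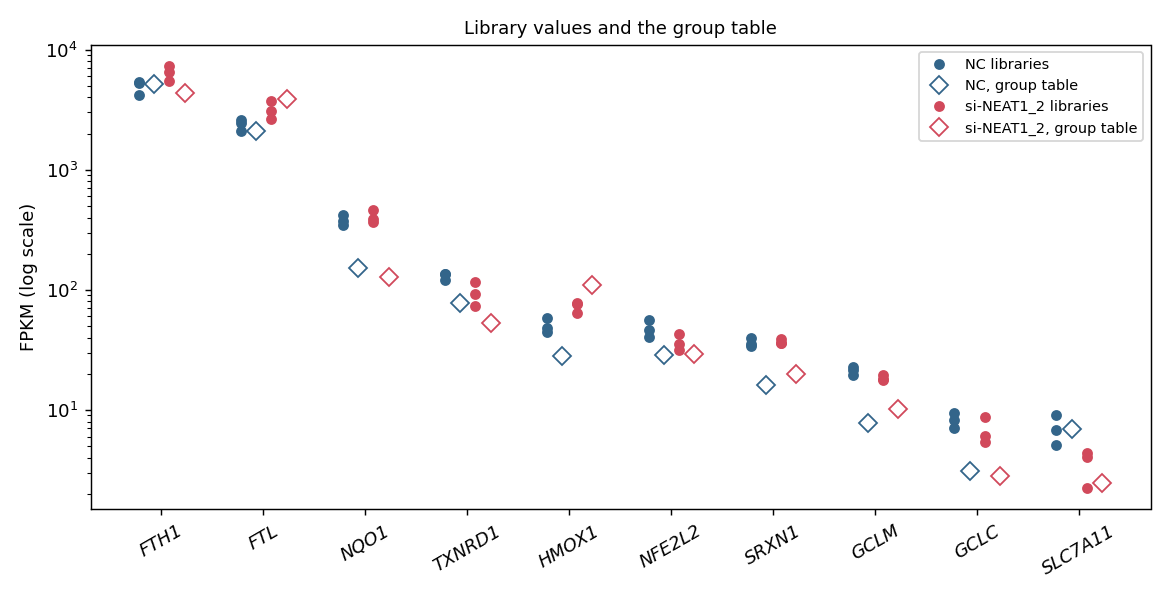
FPKM (y axis, log scale) of the 10 genes, ordered by their mean in NC libraries, in the 3 NC (blue) and 3 si-NEAT1_2 (red) libraries as filled circles, with the group table's value for each group as open diamonds. Most open diamonds lie below the circles of their group, those of HMOX1 and FTL in si-NEAT1_2 lie above them, and FTH1 has its 2 diamonds in the reverse order of its circles.

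HMOX1 of the group table had 28.02 FPKM in the NC and 109 FPKM in the si-NEAT1_2 column, a ratio of 3.90 against 1.44 for the mean library FPKM. SLC7A11 had 6.94 and 2.45, a ratio of 0.353 against 0.509. These were the 2 members past a 2-fold ratio, 1 higher and 1 lower, where 3.55% of 11361 genes with at least 1 FPKM in a column were higher and 14.3% lower. Both had the direction seen in the libraries, with a wider distance between the groups.

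The ferritin chains went apart in the group table. FTH1 had 5190 and 4391 FPKM, a ratio of 0.846, opposite to the libraries (1.303), and FTL had 2109 and 3896, a ratio of 1.85 in the direction of the libraries (1.33). The FTH1 to FTL ratio was accordingly 2.46 for NC and 1.13 for si-NEAT1_2, while it lay between 1.95 and 2.18 in all 6 libraries. TXNRD1 (77.7 and 53.0, ratio 0.682), GCLC (3.09 and 2.84, ratio 0.918) and SRXN1 (16.0 and 19.8, ratio 1.23) had the direction of their library means. NFE2L2 (28.5 and 29.3, ratio 1.03), NQO1 (151 and 128, ratio 0.849) and GCLM (7.73 and 10.2, ratio 1.32) had the opposite one. In all, 6 genes had the same and 4 the opposite direction in the 2 sources.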

How the data were processed

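Per the study's methods and labels, RNA from K1 cells transfected with NC or si-NEAT1_2 was enriched for mRNA, depleted of rRNA, and sequenced on an Illumina platform. The authors deposited an expected count (RSEM) and an FPKM value for each gene and library, and a table of both with 1 column per group, whose making is not given in the sources used here. The methods name TopHat2 as the aligner, while the submitters' processing notes name fastp 0.18.0, Bowtie2 2.2.8, HISAT2, StringTie 1.3.1 and GRCh38.

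Between 9.19% and 9.61% of the expected counts per library were not whole, and all were rounded before testing. Genes were filtered with filterByExpr, scaled by TMM and tested with edgeR 4.0.16 (R 4.3.3, glmQLFit and glmQLFTest, 2-sided) over 13109 genes in all 6 libraries, with Benjamini-Hochberg adjustment. The thresholds, adjusted p under 0.05 and a fold of at least 2, are those of the methods, which name no test. CPM are TMM-normalized. In data simulated from these libraries with 200 changed genes, the fit called 36.6% of 2-fold and 89.2% of 3-fold changes. The counts were drawn gene by gene, without the GC trend of the real libraries, and a call needs an estimated fold of at least 2. These rates may therefore not hold for the real comparison. FPKM ratios within a library were compared by exact permutation. GC content and length came from the longest GENCODE 29 transcript, and their trends were removed per library with splines of 5 degrees of freedom. The alternatives included DESeq2 1.42.0, limma 3.58.1 on log2(FPKM + 1) and log2(FPKM + 0.1), other filters and scalings, and leaving out each library.

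The 10 genes, the 5 lists and the tests were chosen with earlier results of these data known. All 10 genes are named. Of the lists, up to the 3 highest and 3 lowest genes with an unadjusted p under 0.05 are named, and for NFE2L2 the 3 genes of closest profile.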

Additional observations from a re-analysis of the deposited data

How the results depend on the processing

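All 10 genes stayed uncalled under every alternative but 1, the fit without si-NEAT1_2 replicate 1, which called SLC7A11, so that leaving out libraries gave 0 to 1 called members. Of the 10, 7 kept their direction under all 17 alternatives and 9 in every fit without 1 library. GCLM went to 0.21 and SRXN1 to -0.14 with GC and length trends removed, with or without a replicate block, and NQO1 to -0.0026 without si-NEAT1_2 replicate 2, in a range of -0.0026 to 0.22 without single libraries. The cause was not tested. The log2 difference of the FTH1 to FTL ratio was 0.0395 with expected counts in place of FPKM, and -0.0444 to 0.0193 without single libraries (0.0164 without NC replicate 1, the highest without si-NEAT1_2 replicate 2). That of the GCLC to GCLM ratio was -0.0030 with expected counts, and -0.28 to -0.0019 without single libraries.

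The counts of all genes called higher and lower, 0 and 0, became 0 and 1 without scaling, 15 and 45 with DESeq2 (2289 genes without an adjusted p), 9 and 9 without the filter, 0 and 1 with limma on log2(FPKM + 0.1), 1 and 3 with GC and length trends removed, 87 and 126 by the unadjusted p, and 0 to 32 and 0 to 184 without single libraries. The upper ends are those without si-NEAT1_2 replicate 1, and without replicate 2 they were 1 and 2. With DESeq2, HMOX1 and SLC7A11 had adjusted p of 0.0306 and 0.0198, both under a 2-fold difference.

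With the replicate number as a block, 0 genes were called, 1538 genes had an unadjusted p under 0.05 against 3165 without it, and 2 of the 10 members kept one (HMOX1 and SLC7A11), while NFE2L2, FTH1 and FTL did not. Their log2 fold changes were 0.58 for HMOX1, -0.93 for SLC7A11, -0.33 for NFE2L2, 0.50 for FTH1 and 0.46 for FTL. The log2 differences of the ratios stayed at -0.02 and -0.11 by arithmetic, because the mean of paired differences equals the difference of the group means. The study's methods speak of pairs of NC and si-NEAT1_2 cells. Deviations from the group means of libraries with the same number correlated at -0.282, -0.365 and -0.00797, so the numbers gave no sign of pairing. Taken over all genes, these correlations also carry trends of a whole library, so they cannot show that the cultures were unpaired.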
